A study of Mus musculus with 12 samples.

Results

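The 9 genes described here encode parts of the machinery by which a cell is made to die or to release inflammatory cytokines: the tumour necrosis factor (TNF) family receptors *Fas*, *Tnfrsf10b*, *Tnfrsf1a* and *Tnfrsf12a*, the initiator caspase *Casp8*, the necroptosis genes *Ripk3* and *Mlkl*, the pore-forming *Gsdmd* and the inflammasome sensor *Nlrp3*. They were taken by symbol from the 24411 genes of the deposited count table. Each symbol had 1 row, and all 9 were among the 13922 genes with enough counts to be tested. The samples were livers of 3-month-old mice on a C57BL/6 background, in which poly(A) RNA was sequenced. Control mice (cont.) carried *Atg7* flox/flox without Cre, Atg7-KO mice carried *Atg7* flox/flox with Alb-Cre, and Atg7-KO;p62T352A mice carried both of these and the p62T352A knock-in, with 3 mice in each genotype. The floxed allele of *Atg7*, an enzyme that autophagy needs, was therefore present in all of the mice, controls included. Alb-Cre is used to remove it in hepatocytes. How completely it was removed in each cell type of the liver was not measured here. The p62T352A allele, made by prime editing, yields a p62 that does not hold KEAP1, the inhibitor of the transcription factor NRF2, in p62 bodies, the droplets that accumulate when autophagy is lost. Mice with p62T352A and intact *Atg7* were not analysed here.

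Death receptors are membrane proteins of the TNF receptor family. Bound by their ligands, those with a death domain recruit adaptors and caspase-8, which starts apoptosis. Where caspase-8 is held back, the kinase RIPK3 can instead phosphorylate MLKL, which then breaks the plasma membrane, a death called necroptosis. Inflammasomes are sensor complexes, such as that of NLRP3, that activate inflammatory caspases. These caspases cleave gasdermin D into a membrane pore and process interleukin-1 family cytokines, a course called pyroptosis. In liver, hepatocytes are known for their sensitivity to FAS ligand, and NLRP3 is known mainly from macrophages.

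Sequences before the transcription start are given for 4 of the genes, to set beside the values below: *Tnfrsf12a*, *Mlkl* and *Nlrp3*, which were higher in Atg7-KO liver, and *Fas*, which did not pass the test. They are the 250 bases upstream of the RefSeq start in GRCm38.p6, read 5′ to 3′ on the strand of the gene. *Tnfrsf12a* lies on the minus strand (chr17:23677450-23677699), as does *Mlkl* (chr8:111338206-111338455). *Nlrp3*, shown at the first of its RefSeq starts along the chromosome (chr11:59541319-59541568), and *Fas* (chr19:34290409-34290658) lie on the plus strand. Capitals mark matches to any of 5 motifs searched on both strands: the antioxidant response element to which NRF2 binds (TGACNNNGC), the AP-1 site (TGANTCA), the NF-kB consensus site, the core of the interferon response element (GAAANNGAA) and the GC box (GGGCGG).
*Tnfrsf12a*: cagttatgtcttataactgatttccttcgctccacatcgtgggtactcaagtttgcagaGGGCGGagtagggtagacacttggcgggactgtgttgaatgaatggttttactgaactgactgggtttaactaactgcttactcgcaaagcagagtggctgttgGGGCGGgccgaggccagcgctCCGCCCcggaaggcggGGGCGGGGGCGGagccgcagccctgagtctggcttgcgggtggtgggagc
*Mlkl*: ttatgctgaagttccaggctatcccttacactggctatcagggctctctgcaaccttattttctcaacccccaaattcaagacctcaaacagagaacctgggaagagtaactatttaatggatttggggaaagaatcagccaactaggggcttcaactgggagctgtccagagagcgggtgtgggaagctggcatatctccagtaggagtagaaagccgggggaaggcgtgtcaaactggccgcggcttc
*Nlrp3*: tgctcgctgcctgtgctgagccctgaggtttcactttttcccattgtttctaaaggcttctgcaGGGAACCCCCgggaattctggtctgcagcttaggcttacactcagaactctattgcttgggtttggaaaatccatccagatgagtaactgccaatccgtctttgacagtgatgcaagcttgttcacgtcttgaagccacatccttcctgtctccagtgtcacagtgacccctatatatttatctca
*Fas*: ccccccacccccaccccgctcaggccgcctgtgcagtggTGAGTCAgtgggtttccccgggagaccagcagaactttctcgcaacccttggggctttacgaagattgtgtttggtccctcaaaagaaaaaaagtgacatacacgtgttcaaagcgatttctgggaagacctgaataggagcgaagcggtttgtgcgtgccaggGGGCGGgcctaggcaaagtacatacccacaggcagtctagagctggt
Positions are counted back from the base before the start, which is -1. The *Tnfrsf12a* window held 5 GC boxes, from -191 to -39, and no match to the other motifs. The *Nlrp3* window held an NF-kB match at -186 to -177, which reads as a match on both strands. The window of the other RefSeq start of *Nlrp3* (chr11:59542436-59542685), not shown, held no match to any of the 5 motifs. The windows of *Tnfrsf1a* and *Casp8*, not shown, held none either. The *Fas* window held an AP-1 match at -211 to -205 and a GC box at -47 to -42. The *Mlkl* window held no match to any of the 5 motifs, and no matches overlapped between motifs in these windows. Of all 32851 promoter windows of this length, 10.2% held the antioxidant response letters, 6.75% the AP-1 letters, 7.25% the NF-kB consensus, 7.13% the interferon response letters and 32.7% a GC box. RefSeq windows were at hand for 7 of the 9 genes, not for *Tnfrsf10b* or *Gsdmd*. None of the 7 held the antioxidant response or the interferon response letters, which is a statement about these windows alone.

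The libraries held between 9671080 and 23285132 counts, with the widest range among the controls. *Atg7* checked the labels. It was at 46.4, 44.2 and 55.4 normalized CPM (counts scaled to the size and composition of each library) in the 3 cont. mice, at 10.1, 9.57 and 12.0 CPM in the Atg7-KO mice and at 29.7, 27.4 and 29.5 CPM in the Atg7-KO;p62T352A mice. Both Cre genotypes thus lay below all controls, and the double mutants lay above all Atg7-KO mice. *Sqstm1*, which encodes p62, was at 387 ± 103 CPM (SD, n = 3) in cont., 914 ± 44.2 CPM in Atg7-KO and 545 ± 71.1 CPM in Atg7-KO;p62T352A liver. 2 features cut across the genotypes. The mice numbered 1 had 7 to 28 counts of *Xist*, the X-inactivation transcript, and the other 6 had 8578 to 18335. Cont. mouse 1 also stood apart from the other controls, with the deepest library and 31.2% of its counts in its 20 most abundant genes, against 21.1% and 22.8%. Values without the mice numbered 1 are given beside each set of results below.

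Of the 9 genes, 5 rose in Atg7-KO liver against cont. and none was called lower (edgeR quasi-likelihood test over all tested genes, false discovery rate under 0.05 and fold change over 1.5). The 5 were *Tnfrsf10b*, *Tnfrsf12a*, *Mlkl*, *Nlrp3* and *Tnfrsf1a*, with log2 fold changes from 0.66 to 4.52. Over all genes tested, 43.7% were called in this comparison, 21.6% of them higher and 22.1% lower as shares of the tested genes, so that a call was common in this comparison. At an unadjusted p under 0.05 the higher genes were the same in number and 1 gene, *Gsdmd*, was lower, and DESeq2 also called 5 higher and none lower. The groups did not overlap for 5 of the 9 genes and for 55.5% of all genes. The median log2 fold change was 0.66 over the 9 genes and -0.03 over all tested genes. Which of the liver's cells these transcripts came from cannot be read from whole tissue, in which fewer cells of a type and less RNA per cell cannot be told apart.

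**Figure D1:**
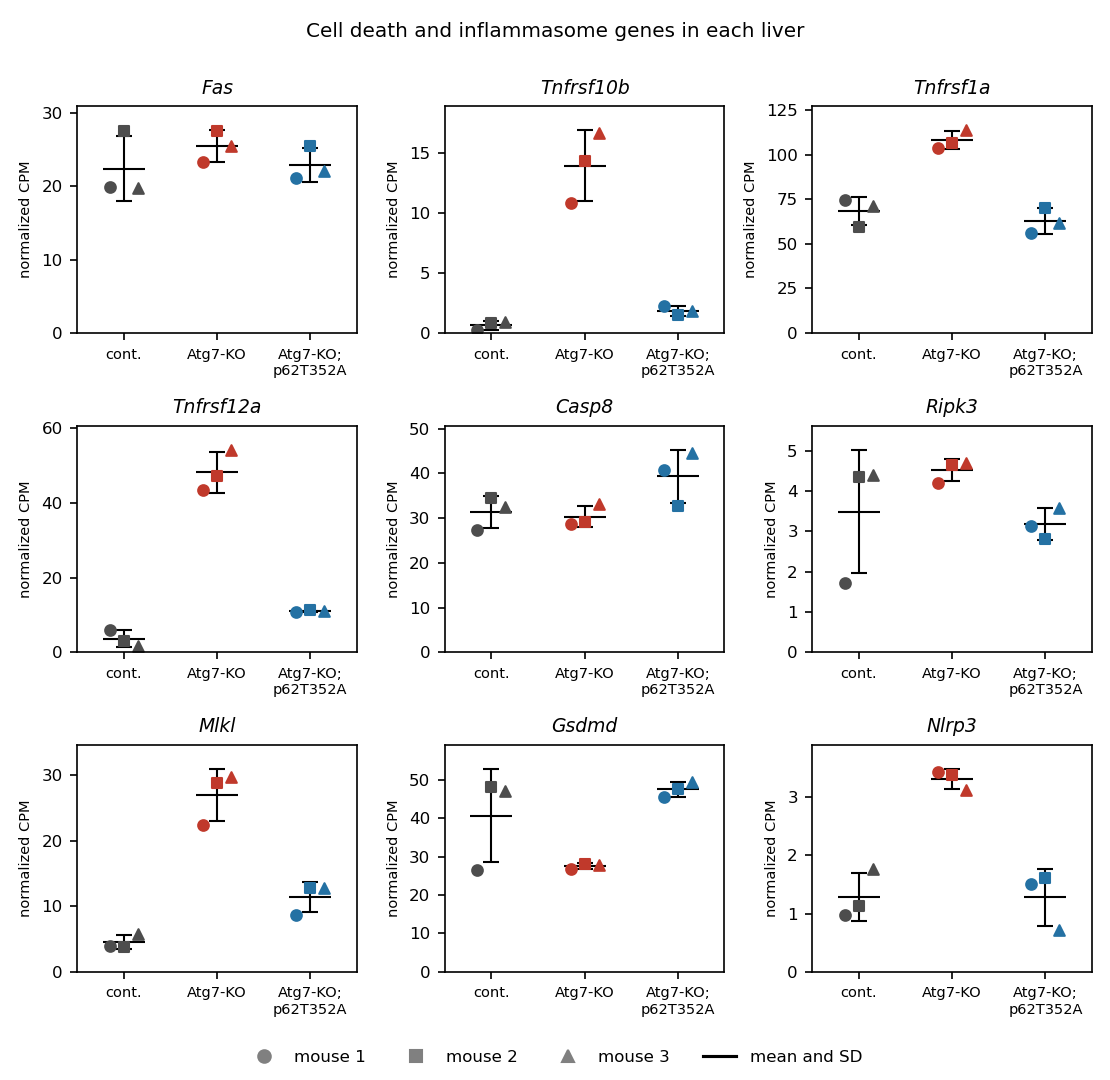
Normalized CPM (linear axes from 0) of the 9 genes in each liver, by genotype. Points are single mice, with the shape giving the mouse number, and bars give the mean and SD of 3 mice. All Atg7-KO mice lie above all mice of the other genotypes for *Tnfrsf10b*, *Tnfrsf1a*, *Tnfrsf12a*, *Mlkl* and *Nlrp3*, and the *Gsdmd* value of cont. mouse 1 lies at the Atg7-KO level.

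The death receptors moved apart from one another. *Tnfrsf10b* (ENSMUSG00000022074.6, chr14:69767472-69784411), the receptor for TRAIL, was nearly silent in control liver, with 4, 9 and 8 counts, or 0.229, 0.851 and 0.879 CPM. In Atg7-KO mice it had 224, 349 and 390 counts, or 10.8, 14.3 and 16.6 CPM. The groups were far from overlapping, and the difference was 22.9-fold (log2 fold change 4.52, SE 0.43, edgeR adjusted p = 6.76e-05). Because the control level rests on so few counts, the size of this fold is less certain than its direction: it was 4.15 on the log2 scale in the mice numbered 2 and 3 alone. *Tnfrsf12a* (ENSMUSG00000023905.15, chr17:23675445-23677468), which encodes FN14, the receptor for TWEAK and a member without a death domain, was at 6.07, 3.12 and 1.65 CPM in cont. and at 43.4, 47.0 and 54.1 CPM in Atg7-KO liver. The lowest Atg7-KO mouse was several times above the highest control, and the log2 fold change was 3.69 (SE 0.37, edgeR adjusted p = 9.39e-05), or 12.9-fold. Cont. mouse 1 was the highest control, and the log2 fold change was 4.31 without it and 4.38 in the mice numbered 2 and 3 alone.

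*Tnfrsf1a* (ENSMUSG00000030341.17, chr6:125349362-125362484), the main TNF receptor with a death domain, was at 74.6, 59.7 and 71.2 CPM in cont. and at 104, 107 and 114 CPM in Atg7-KO liver. The groups did not overlap, but the difference was small, at 1.58-fold (log2 fold change 0.66, SE 0.16, edgeR adjusted p = 0.00939). Without cont. mouse 2 it was no longer called, at a log2 fold change of 0.49 (edgeR adjusted p = 0.0742). *Fas* (ENSMUSG00000024778.13, chr19:34290666-34327772), the receptor for FAS ligand, was at 19.9, 27.5 and 19.8 CPM in cont. and at 23.3, 27.5 and 25.5 CPM in Atg7-KO liver. Here the groups overlapped, and the log2 fold change was 0.19 (SE 0.18, edgeR adjusted p = 0.426). In raw counts the Atg7-KO libraries held more *Fas* reads (481 to 670) than the controls (180 to 347), a difference that scaling by library size and composition took away.

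*Casp8* (ENSMUSG00000026029.14, chr1:58795374-58847503), the caspase that the death receptors engage, was at 27.5, 34.4 and 32.4 CPM in cont. and at 28.7, 29.2 and 33.1 CPM in Atg7-KO liver. The ranges coincided (log2 fold change -0.05, SE 0.17, edgeR adjusted p = 0.830). The necroptosis pair differed. *Ripk3* (ENSMUSG00000022221.14, chr14:55784995-55788865), the kinase, was at 1.72, 4.35 and 4.4 CPM in cont. and at 4.21, 4.64 and 4.69 CPM in Atg7-KO liver. Cont. mouse 1 alone was low, and the log2 fold change of 0.40 (SE 0.33, edgeR adjusted p = 0.352) went to 0.04 without it. *Mlkl* (ENSMUSG00000012519.14, chr8:111311797-111338177), the substrate of that kinase, was at 3.95, 3.78 and 5.72 CPM in cont. and at 22.4, 28.8 and 29.7 CPM in Atg7-KO liver. Every Atg7-KO mouse was well above every control, and the difference was 6.05-fold (log2 fold change 2.60, SE 0.24, edgeR adjusted p = 6.41e-05).

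The pyroptosis genes also went different ways. *Nlrp3* (ENSMUSG00000032691.14, chr11:59541568-59566956), the inflammasome sensor, was low in every liver. It had 17, 12 and 16 counts in cont., or 0.974, 1.14 and 1.76 CPM, and 71, 82 and 73 counts in Atg7-KO mice, or 3.43, 3.37 and 3.11 CPM. The groups were separate, and the difference was 2.61-fold (log2 fold change 1.39, SE 0.35, edgeR adjusted p = 0.0102). *Gsdmd* (ENSMUSG00000022575.5, chr15:75862327-75867408), the gasdermin, was at 26.6, 48.1 and 47.0 CPM in cont. and at 26.8, 28.1 and 27.7 CPM in Atg7-KO liver. The result depended on cont. mouse 1, which lay just below the Atg7-KO mice while the other controls lay far above them. With all mice the log2 fold change was -0.56 (SE 0.22, edgeR adjusted p = 0.0613) and was not called. Without that mouse it was -0.79 (SE 0.11, edgeR adjusted p = 2.40e-04) and *Gsdmd* was called lower, as it was in the mice numbered 2 and 3 alone (-0.77, edgeR adjusted p = 0.00257). The other 5 calls of the comparison were made in those mice too.

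Set per kilobase of the longest annotated transcript, the order of levels among the genes changed between genotypes. In cont. liver *Tnfrsf1a* was highest, at a mean of 31.8 CPM per kilobase, followed by *Gsdmd* at 22.7, *Fas* at 13.8 and *Casp8* at 12.2. *Tnfrsf12a* at 3.67, *Mlkl* at 2.24 and *Ripk3* at 1.78 came next, and *Nlrp3* at 0.321 and *Tnfrsf10b* at 0.206 were last. *Fas* and *Casp8*, *Tnfrsf12a*, *Mlkl* and *Ripk3*, and *Nlrp3* and *Tnfrsf10b*, were neighbours whose gaps were within the SD of one of them. In Atg7-KO liver *Tnfrsf12a*, at 49 CPM per kilobase, stood beside *Tnfrsf1a* at 50.1, with a gap inside their spread. *Fas* at 15.7, *Gsdmd* at 15.4, *Mlkl* at 13.5 and *Casp8* at 11.7 followed, each within 1 SD of its neighbour. *Tnfrsf10b* was at 4.38, *Ripk3* at 2.3 and *Nlrp3*, the lowest, at 0.822. In the double mutants *Tnfrsf1a* at 29 and *Gsdmd* at 26.5 were not apart beyond their spread, nor were *Casp8* at 15.2 and *Fas* at 14.1. *Tnfrsf12a* at 11.2, *Mlkl* at 5.7, *Ripk3* at 1.62, *Tnfrsf10b* at 0.586 and *Nlrp3* at 0.317 followed, each apart from the next.

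Between Atg7-KO;p62T352A and Atg7-KO liver, 6 of the 9 genes were called. These genotypes differ in the p62 allele, but *Atg7* itself was also higher in the double mutants (log2 fold change 1.45, edgeR adjusted p = 1.64e-04). The parts of the p62 allele and of the *Atg7* level in the differences below cannot be told apart in these mice. *Tnfrsf10b*, *Tnfrsf12a*, *Mlkl*, *Nlrp3* and *Tnfrsf1a* were lower in the double mutants, and *Gsdmd* was higher. Over all genes, 51% were called in this comparison, 24.7% of the tested genes higher and 26.2% lower. The comparison shares the Atg7-KO mice with the one above, so a low or high Atg7-KO value moves both. The median log2 fold change over the 9 genes was -0.79, and over all tested genes it was 0.00. The 6 calls were the same without each mouse in turn and in the mice numbered 2 and 3 alone.

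*Tnfrsf10b* had 32, 21 and 28 counts in the double mutants, or 2.29, 1.47 and 1.83 CPM, below every Atg7-KO mouse, and its log2 fold change was -2.90 (SE 0.37, edgeR adjusted p = 2.63e-04). *Tnfrsf12a* was at 10.9, 11.2 and 11.0 CPM, in nearly equal amounts in the 3 mice, at a log2 fold change of -2.13 (SE 0.34, edgeR adjusted p = 8.32e-04). *Mlkl* was at 8.71, 12.8 and 12.8 CPM (log2 fold change -1.24, SE 0.23, edgeR adjusted p = 0.00164). None of these 3 genes had a double-mutant mouse within the Atg7-KO range, nor one within the cont. range. *Nlrp3* was at 1.5, 1.61 and 0.718 CPM (log2 fold change -1.37, SE 0.34, edgeR adjusted p = 0.00805). *Tnfrsf1a* was at 55.8, 70.3 and 61.8 CPM (log2 fold change -0.79, SE 0.16, edgeR adjusted p = 0.00319). Both were separate from the Atg7-KO mice and overlapped the controls.

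*Gsdmd* was the gene called higher, at 45.4, 47.6 and 49.4 CPM in the double mutants (log2 fold change 0.79, SE 0.22, edgeR adjusted p = 0.0134). All of these lay above all Atg7-KO mice, and their range spanned the values of cont. mice 2 and 3. *Ripk3* was at 3.14, 2.80 and 3.59 CPM, below all Atg7-KO mice, but its log2 fold change of -0.51 (SE 0.33) did not pass the test (edgeR adjusted p = 0.219). For all genes tested, 73.2% had groups that did not overlap in this comparison, against 7 of the 9 genes here. *Casp8*, at 40.7, 32.8 and 44.5 CPM, had a log2 fold change of 0.37 (SE 0.17, edgeR adjusted p = 0.0920), with double mutants in and above the Atg7-KO range. *Fas*, at 21.1, 25.4 and 22.1 CPM, overlapped the Atg7-KO mice (log2 fold change -0.16, SE 0.18, edgeR adjusted p = 0.490).

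Against cont., 3 of the 9 genes were higher in Atg7-KO;p62T352A liver and none was lower, at an unadjusted p under 0.05 as well, and DESeq2 gave the same counts. Over all genes tested, 11.6% were called in this comparison, 6.25% higher and 5.34% lower. *Mlkl* was 2.56-fold higher (log2 fold change 1.36, SE 0.24, edgeR adjusted p = 0.0105), *Tnfrsf12a* 2.94-fold (log2 fold change 1.56, SE 0.36, edgeR adjusted p = 0.0246) and *Tnfrsf10b* 3.06-fold (log2 fold change 1.61, SE 0.45, edgeR adjusted p = 0.0447). For these 3 genes, and for no other of the 9, the groups did not overlap, which held for 26.6% of all genes tested. The calls of *Tnfrsf12a* and *Tnfrsf10b* were close to the threshold. Without cont. mouse 1 the log2 fold change of *Tnfrsf12a* was 2.19. *Mlkl* alone was still called without cont. mouse 2, Atg7-KO mouse 2 or 3, or any one of the double mutants, and none of the 3 was called in a fit of these 2 genotypes alone, where *Mlkl* had an edgeR adjusted p of 0.0750.

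In the mice numbered 2 and 3 alone, *Mlkl* (log2 fold change 1.44, edgeR adjusted p = 0.00688) and *Tnfrsf12a* (2.19, edgeR adjusted p = 0.00400) were called, and *Tnfrsf10b* (0.93, edgeR adjusted p = 0.0832) was not. The other 6 genes gave log2 fold changes between -0.13 and 0.32 with all mice. For *Casp8*, the highest of these, the edgeR adjusted p was 0.253, and for *Nlrp3* the log2 fold change was 0.01 (SE 0.37, edgeR adjusted p = 0.989). The depth behind *Nlrp3* was 11 to 23 counts in the mice of these 2 genotypes.

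**Figure D2:**
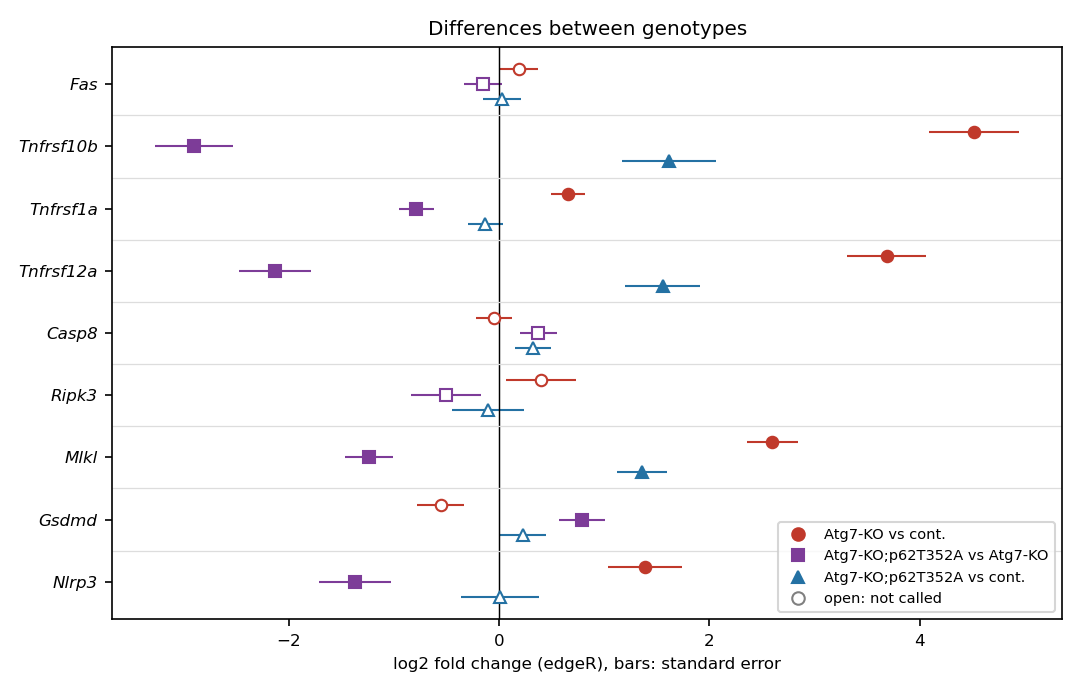
Fitted log2 fold changes of the 9 genes in the 3 comparisons, with bars for the standard error. Filled symbols passed the test and open symbols did not. *Tnfrsf10b*, *Tnfrsf12a* and *Mlkl* are filled in every comparison, *Tnfrsf1a* and *Nlrp3* in the 2 that involve Atg7-KO mice, *Gsdmd* in 1, and *Fas*, *Casp8* and *Ripk3* in none.

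The wider pathways were followed through 4 lists of 89 other genes, of which 85 were tested. In Atg7-KO against cont., 27 of the 85 rose and 10 fell, with a median log2 fold change of 0.36. Over all tested genes 43.7% were called, 21.6% higher and 22.1% lower. In total the list genes were thus called about as often as genes in general. More of the list genes rose than fell, while over all tested genes the shares were nearly equal. In Atg7-KO;p62T352A against Atg7-KO, 11 rose and 36 fell, with a median of -0.48, against 24.7% higher and 26.2% lower over all tested genes. In Atg7-KO;p62T352A against cont., 4 rose and 4 fell, with a median of -0.04, against 6.25% higher and 5.34% lower over all tested genes. In the mice numbered 2 and 3 alone, 29 rose and 17 fell in the first of these comparisons, and 12 rose and 34 fell in the second. The last count of 8 went to 21, 6 higher and 15 lower, without cont. mouse 1, and to 18 in the mice numbered 2 and 3 alone. It lay between 2 and 6 without any one of the other 8 mice.

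Of 21 tested ligands, adaptors and brakes of the death receptors, 5 rose and 2 fell in Atg7-KO liver, beside 21.6% and 22.1% of all tested genes. *Tnfaip3*, which encodes A20, a brake on NF-kB signalling, went from 3.19 ± 0.952 CPM in cont. to 18.7 ± 0.812 CPM (SD, n = 3 each; log2 fold change 2.54, edgeR adjusted p = 1.40e-04). *Tnfsf10*, which encodes TRAIL, the ligand of the *Tnfrsf10b* product, went from 7.31 ± 1.62 to 20.9 ± 1.17 CPM (log2 fold change 1.51, edgeR adjusted p = 8.94e-04). In the double mutants it was at 3.45 ± 0.917 CPM, lower than in cont. too, while its receptor was higher than in cont. *Traf3*, an adaptor, rose less (log2 fold change 0.64, edgeR adjusted p = 0.0225). *Cflar*, which encodes c-FLIP, the inhibitor of caspase-8 recruitment, fell from 82.0 ± 5.39 to 49.5 ± 0.570 CPM (log2 fold change -0.73, edgeR adjusted p = 0.00869), and was at 90.6 ± 18.4 CPM in the double mutants. *Sharpin*, a subunit of the linear ubiquitin ligase, also fell (log2 fold change -0.77, edgeR adjusted p = 0.0120). *Fadd*, the adaptor between death receptors and caspase-8, was at 7.80 ± 1.85 CPM in cont. and 10.2 ± 0.485 CPM in Atg7-KO liver and did not pass the test (edgeR adjusted p = 0.175). It was named after its value was seen. Among these 21, *Tnfsf10* alone was called in the double mutants against cont. The groups of that comparison did not overlap for 4 of the 21, beside 26.6% of all tested genes.

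Of 30 tested genes of the mitochondrial route and its caspases, 10 rose and 2 fell in Atg7-KO liver, beside 21.6% and 22.1% of all tested genes. *Pmaip1*, which encodes the death-promoting NOXA, went from 0.856 ± 0.172 to 4.27 ± 0.476 CPM (log2 fold change 2.31, edgeR adjusted p = 5.63e-04). *Bcl2a1b* (log2 fold change 3.04, edgeR adjusted p = 2.47e-04) and *Bcl2a1d* (4.46, edgeR adjusted p = 3.05e-04), near-identical relatives that protect against apoptosis, also rose. Since 68.4% and 67.6% of their 75-base stretches occur in another gene, counts may have been divided among these copies and the single values are uncertain. *Dffb*, the nuclease that cuts DNA in apoptosis, fell (log2 fold change -2.28, edgeR adjusted p = 0.00727), although cont. mouse 1, at 1.95 CPM, was near the Atg7-KO mice at 1.19 to 1.89 CPM and far from the other controls at 11.4 and 9.67 CPM. *Endog*, a mitochondrial nuclease, fell from 39.6 ± 2.41 to 23 ± 2.99 CPM (log2 fold change -0.78, edgeR adjusted p = 0.00513). Its exons overlap those of *Spout1* on the other strand, and whether counting used strand is not given in the sources used here.

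Of the 8 partners of necroptosis, 4 rose and 1 fell in Atg7-KO liver, beside 21.6% and 22.1% of all tested genes. *Zbp1*, a nucleic acid sensor that can engage RIPK3, went from 7.77 ± 1.89 to 66.0 ± 12.6 CPM (log2 fold change 3.09, edgeR adjusted p = 1.40e-04). In the double mutants it was at 18.1, 24.7 and 41.6 CPM, above every control and below every Atg7-KO mouse. It was the only partner called in the double mutants against cont. *Aurka*, a mitotic kinase (log2 fold change 2.51, edgeR adjusted p = 2.49e-04), and *Tlr4*, the receptor for bacterial lipopolysaccharide (2.39, edgeR adjusted p = 9.12e-04), also rose. *Stub1*, a ubiquitin ligase, fell (-1.17, edgeR adjusted p = 0.00495), with 30.5% of its stretches shared with the overlapping *Jmjd8*.

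Of 26 tested genes of inflammasomes and pyroptosis, 8 rose and 5 fell in Atg7-KO liver, beside 21.6% and 22.1% of all tested genes. In the double mutants 14 were lower and 4 higher than in Atg7-KO, beside 26.2% and 24.7% of all tested genes. *Naip2*, a sensor of rod proteins of bacterial secretion systems, went from 5.21 ± 1.52 to 49.9 ± 2.78 CPM (log2 fold change 3.24, edgeR adjusted p = 1.83e-05) and was at 3.69 ± 0.503 CPM in the double mutants. *Naip2* shares 10.7% of its stretches with other *Naip* genes. *Casp4*, the caspase that senses lipopolysaccharide in the cell, went from 1.75 ± 0.694 to 13.5 ± 2.99 CPM (log2 fold change 2.99, edgeR adjusted p = 6.98e-04). *Il1rn*, the secreted antagonist of interleukin-1, went from 5.12 ± 3.15 to 28.8 ± 2.53 CPM (log2 fold change 2.53, edgeR adjusted p = 0.00231). *Il1rap*, a subunit of the interleukin-1 receptor, fell from 149 ± 67.3 to 26.4 ± 6.05 CPM (log2 fold change -2.50, edgeR adjusted p = 4.77e-04). *Nlrp6*, an inflammasome sensor of epithelia, fell most (log2 fold change -4.44, edgeR adjusted p = 0.00130), from 144, 1659 and 1120 CPM in the controls, among which mouse 1 was far below the other two, to 39.0, 48.7 and 46.8 CPM. The 1 gene of these 26 called in the double mutants against cont. was *Nek7*, which encodes a kinase that NLRP3 needs. It was lower, at 10.5 ± 1.67 CPM against 29.8 ± 20.7 CPM (edgeR adjusted p = 0.0464). Among the controls, mouse 1 was at 52.7 CPM and mouse 2 at 23.9 CPM. Cont. mouse 3, at 12.6 CPM, lay near the highest double mutant, at 12.3 CPM. *Nek7* was named here after its value was seen.

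**Figure D3:**
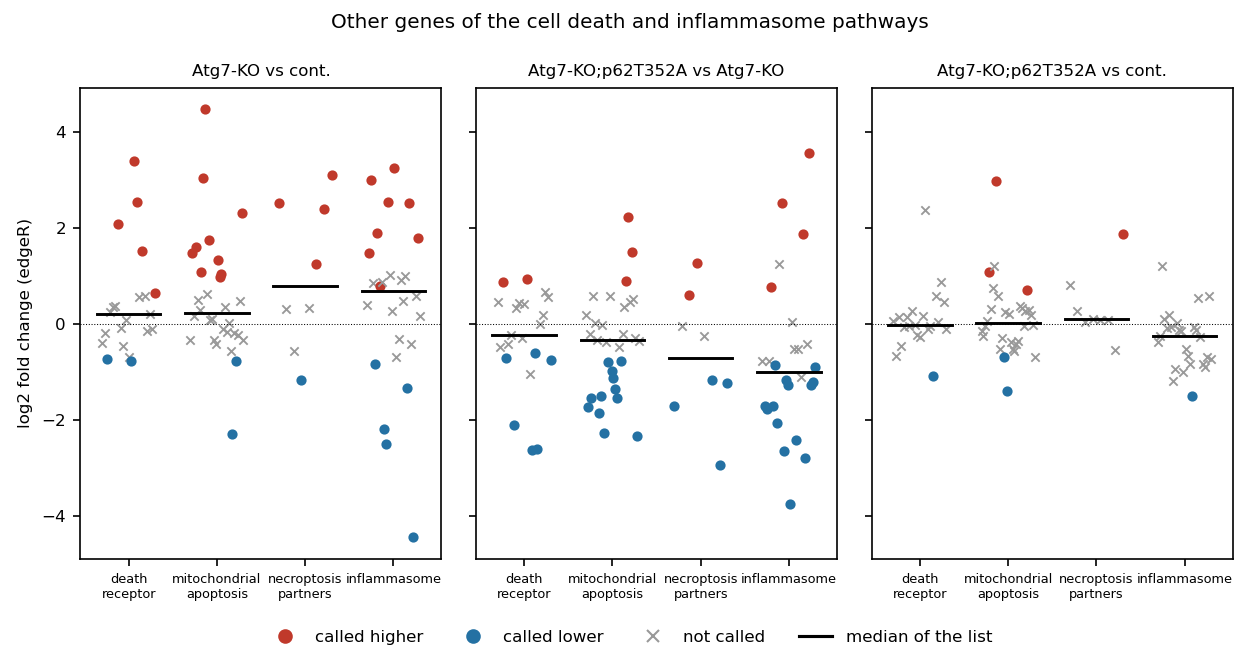
Fitted log2 fold change of each tested gene of the 4 pathway lists in the 3 comparisons, with a black line at the median of each list. The called genes are 27 higher and 10 lower in Atg7-KO against cont., 11 higher and 36 lower in Atg7-KO;p62T352A against Atg7-KO, and 4 higher and 4 lower in Atg7-KO;p62T352A against cont. The comparisons share mice and are not independent of one another.

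Markers of several of the liver's cell types also differed between the genotypes. The summed level of 9 hepatocyte markers was 77780 to 148000 CPM in cont., 38870 to 41650 CPM in Atg7-KO and 115400 to 135800 CPM in Atg7-KO;p62T352A liver, and all 9 were called lower in Atg7-KO against cont. The 10 macrophage markers summed to 326 to 481 CPM in cont., 1310 to 1403 CPM in Atg7-KO and 237 to 492 CPM in the double mutants. Of these markers, 8 were called higher in Atg7-KO against cont., 1 was called lower and 1 was not called. The 8 cholangiocyte markers summed to 67.0 to 70.3 CPM, 857 to 1049 CPM and 206 to 290 CPM in the same order, with 5 of 7 tested higher in Atg7-KO. By genotype, the macrophage and cholangiocyte sums and the levels of *Tnfrsf10b*, *Tnfrsf12a*, *Mlkl* and *Nlrp3* were all highest in Atg7-KO liver. In Atg7-KO mice 1, 2 and 3, the cholangiocyte sums were 1049, 964.5 and 857 CPM and the macrophage sums 1334, 1310 and 1403 CPM. Among these mice *Tnfrsf10b*, *Tnfrsf12a* and *Mlkl* were highest in mouse 3, and *Nlrp3*, at 3.43, 3.37 and 3.11 CPM, in mouse 1. The order of 3 mice cannot show which cells a transcript came from, and this was not tested. For the cholangiocyte markers, as for *Tnfrsf10b*, *Tnfrsf12a* and *Mlkl*, the double mutants lay between the other genotypes.

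The 8 stellate cell markers summed to 247 to 298 CPM in cont., 854 to 1004 CPM in Atg7-KO and 358 to 595 CPM in the double mutants, with 6 of 8 higher in Atg7-KO. The 8 endothelial markers summed to 390 to 415, 354 to 368 and 179 to 224 CPM, with 3 higher and 1 lower in Atg7-KO and 6 lower in the double mutants against cont. The 7 neutrophil markers in the table summed to 4.87 to 11.3, 10.9 to 17.2 and 7.71 to 10.6 CPM, with 2 of 4 tested higher in Atg7-KO. The 10 lymphocyte markers summed to 8.77 to 18.9, 21.7 to 25.3 and 9.86 to 15.8 CPM, with 4 of 10 higher in Atg7-KO. No marker was at 0 in every mouse of a genotype. The part of these cell types in the levels of the 9 genes was not tested.

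**Figure D4:**
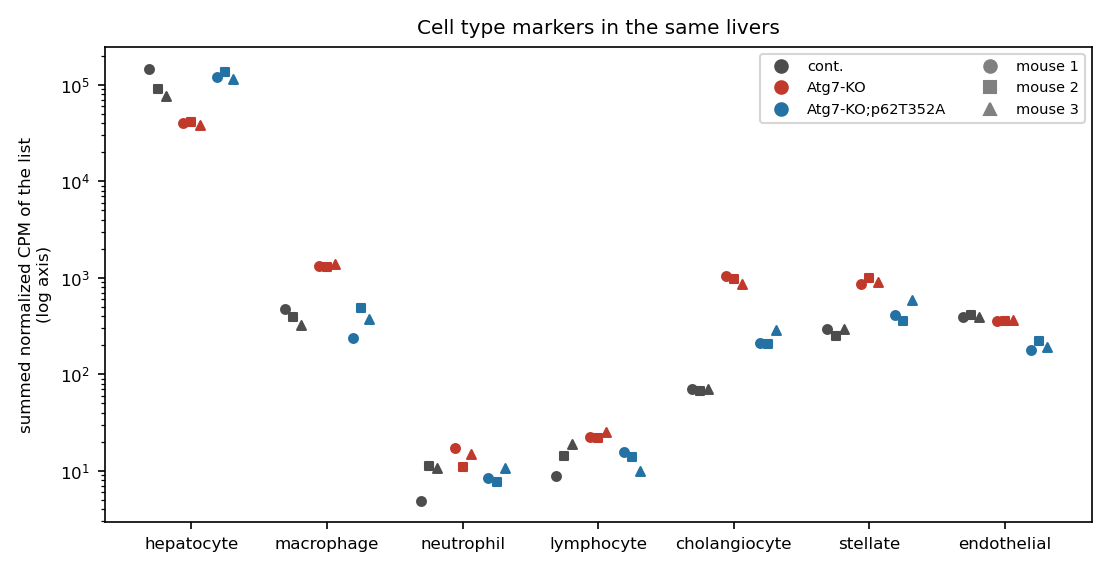
Summed normalized CPM (log axis) of 7 lists of cell type markers in each liver. Colours give the genotype and shapes the mouse number. Macrophage, cholangiocyte and stellate sums are highest in the Atg7-KO mice and the hepatocyte sum is lowest there, at 38870 to 41650 CPM.

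Likeness of profile was measured as the root mean square (RMS) difference of log2 CPM over the 9 mice, after each gene was centred on its own mean. By this measure *Tnfrsf10b* was nearest to *Psrc1* (0.32) and *Col1a1* (0.34), and *Tnfrsf12a* to *Tmem171* (0.19) and *Fam83d* (0.27). *Mlkl* was nearest to *Cd8b1* (0.17) and *2210013O21Rik* (0.19), and *Nlrp3* to *Fcrl1* (0.22). These distances are to be read against the genes' own spread around the mean, of 1.84, 1.64, 1.07 and 0.72. *Tnfrsf1a* was nearest to *Atp6v1b2* (0.06) and *Lbr* (0.09), and *Gsdmd* to *Gga1* and *Maf1* (0.07 and 0.08). *Fas* was nearest to *Myd88* (0.09) and *Sf3a3* (0.10), *Casp8* to *Dnajc8* (0.10) and *Supt16* (0.10), and *Ripk3* to *Git1* (0.10) and *Prkcd* (0.11). Among the 9 genes themselves, the smallest distances were those of *Casp8* and *Gsdmd* (0.28) and of *Fas* and *Casp8* (0.29), while *Tnfrsf10b* and *Gsdmd* were farthest apart (2.06). Both of the small distances exceeded the own spread of *Casp8* (0.215), and the second also that of *Fas* (0.177). They therefore show that these genes varied little, not that they shared a pattern. The nearest of the other 8 to *Tnfrsf12a* was *Mlkl* (0.79), and the nearest to *Mlkl* was *Nlrp3* (0.73).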

How the data were processed

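Per the study's methods and labels, poly(A) RNA of mouse liver was sequenced as 75-base single reads, trimmed with Trim Galore and aligned with STAR (mm10), and RSEM estimated the counts per gene. The authors deposited the expected counts of 9 livers in 1 table. Versions, annotation and strand setting are not given in the sources used here. 3 labelled p62T352A mice had no column and were not analysed here. Expected counts were rounded, filtered (filterByExpr), scaled (TMM) and fitted with edgeR 4.0.16 in R 4.3.3 (glmQLFit, glmQLFTest) for the 3 genotypes in 1 model, with Benjamini-Hochberg adjustment over 13922 genes. Called means a false discovery rate under 0.05 and a fold change over 1.5. The steps were tested on simulated data. Totals of 9671080 to 23285132 counts limit the genes with few counts. The alternatives were DESeq2 1.42.0, other scaling, filters, designs and thresholds, and leaving out each mouse. Positions and shared stretches come from GENCODE vM21 (GRCm38), and promoters from RefSeq. The genes and lists were chosen with earlier results of these data known. The named genes of a pathway list are the 3 called genes with the largest rise and the 2 with the largest fall between Atg7-KO and cont. among genes at a mean of 1 CPM or more whose groups do not overlap. *Fadd* and *Nek7* were named outside this rule, after their values were seen. The 2 genes of nearest profile were named for each of the 9 genes, except 1 that is not reported here.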

Additional observations from a re-analysis of the deposited data

How the results depend on the processing

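Of 510 log2 fold changes recomputed for the 9 genes under the alternatives, 462 kept their direction and their side of the threshold, 25 lost the call, 2 gained it and 21 turned their sign, all of them in values that were not called. In Atg7-KO against cont. 4 to 6 genes were called under the alternatives, and in Atg7-KO;p62T352A against Atg7-KO 4 to 6. *Tnfrsf10b* could not be tested with at least 10 counts in every mouse. With glmTreat against a fold change of 1.5, *Tnfrsf1a* (edgeR adjusted p = 0.310 and 0.101) lost both calls and *Gsdmd* (edgeR adjusted p = 0.157) lost its call. In Atg7-KO;p62T352A against cont. the count of 3 went to 0 with only these 2 genotypes in the fit and to 0 with glmTreat, with 3 genes at an unadjusted p under 0.05 both times, and to between 1 and 3 without one mouse. The 8 pathway list genes of that comparison went to 4 with the replicate block, 0 with only the 2 genotypes (6 higher and 6 lower at an unadjusted p under 0.05), 18 in mice 2 and 3 alone, 1 with glmTreat and 2 to 21 without one mouse. The test against a fold change is stricter by construction. For the other settings the cause was not tested. Signs turned for *Casp8* in Atg7-KO against cont. (0.067 with upper-quartile scaling, 0.031 with at least 10 counts). They turned in Atg7-KO;p62T352A against cont. for *Fas* (-0.019 with DESeq2, -0.020 with its size factors, -0.054 to 0.135 without one mouse), *Tnfrsf1a* (0.014 in mice 2 and 3 alone), *Ripk3* (-0.456 to 0.102 without one mouse), *Gsdmd* (-0.002 to 0.348 without one mouse) and *Nlrp3* (-0.033 with DESeq2, -0.038 with its size factors, -0.014 with upper-quartile scaling, -0.007 with the replicate block, -0.015 with only the 2 genotypes, -0.307 in mice 2 and 3 alone, -0.193 to 0.301 without one mouse). Under upper-quartile scaling the median over all genes went from -0.03 to 0.08 in Atg7-KO against cont. and from 0.00 to -0.13 in Atg7-KO;p62T352A against Atg7-KO. The labels give mice numbers that do not state a pairing, and the mean correlation of deviations was 0.22, -0.03 and 0.25 for mice 1, 2 and 3 and -0.07 between numbers, and not every mouse correlated best with its own number. The replicate block called 5, 6 and 2 of the 9 genes, with *Tnfrsf10b* (edgeR adjusted p = 0.0665) lost in the last comparison.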
